A study of Rattus norvegicus with 24 samples.

Results

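The mammalian circadian clock was read here through 10 of its genes: Bhlhe41, Bhlhe40, Nr1d1, Nr1d2, Per1, Per2, Per3, Dbp, Cry1 and Clock. They were taken as every probe set that the platform annotation assigns to a single one of these symbols, which gave 17 of the 31099 probe sets on the Affymetrix Rat Genome 230 2.0 array. The RNA was that of hippocampal field CA1 in male Long-Evans rats, and the 23 arrays fell into 3 groups: young rats of 6 months (9 arrays), aged rats of 24 to 26 months with unimpaired spatial learning (6 arrays) and aged rats of the same ages with impaired spatial learning (8 arrays). The aged groups were defined by a learning index from a Morris water maze, a pool with a submerged platform: unimpaired rats scored within the range of the young, impaired rats worse. No group carried a transgene or a treatment, all were kept under a light and dark cycle of 12 h each, and the brains were taken 2 weeks after testing. The hour of the day at which they were taken is not given in the sources used here, so the phase of the clock in each rat is unknown and the values describe single time points only.

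The clock is a feedback loop of transcription. CLOCK, or its relative NPAS2, pairs with BMAL1 and binds E-box sequences in the Per and Cry genes, whose products then block that pair; the same E-boxes drive Nr1d1, Nr1d2, Dbp, Bhlhe40 and Bhlhe41. The proteins of Nr1d1 and Nr1d2 (REV-ERB alpha and beta) repress Bmal1, Npas2, Clock and Cry1 through ROR elements, so in most tissues the Per, Nr1d and Dbp transcripts peak together and those of Bmal1 and Npas2 peak in the opposite phase. In the hippocampus these genes cycle as well, and Per1 in particular also responds within a short time to neuronal activity and to glucocorticoids.

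The sequences just before the transcription starts were set out first, because the loop acts through elements of this kind. The arms compared below were set by the phase in which the genes peak, not by this search. The 250 bases before each start in the RefSeq promoter table for the rat build GRCr8 were searched on both strands for the E-box CACGTG, the weaker E-prime box CACGTT, the ROR element core AGGTCA, the D-box TTATGTAA, which DBP binds, and the cAMP response element TGACGTCA. Of 33469 RefSeq promoters, 5.59% held the E-box, 4.07% the E-prime box, 14.1% the ROR element core, 0.828% the D-box and 1.59% the cAMP response element. The stretches shown are those of the genes on which the results turn, 5′ to 3′ on the strand of the gene, with every matched element in capitals. For Bhlhe41 and for the E-prime box of Per2, whose match lies inside the annotated span of the gene, only the 30 bases around the match are given.
Bhlhe41, chr4:180569386-180569415, minus strand: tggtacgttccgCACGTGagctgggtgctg
Bhlhe40, chr4:143174200-143174449, plus strand: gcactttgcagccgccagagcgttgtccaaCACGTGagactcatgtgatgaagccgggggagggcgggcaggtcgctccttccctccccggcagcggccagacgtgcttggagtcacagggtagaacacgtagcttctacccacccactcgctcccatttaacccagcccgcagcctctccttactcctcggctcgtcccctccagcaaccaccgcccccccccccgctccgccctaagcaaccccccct
Nr1d2, chr15:9954784-9955033, plus strand: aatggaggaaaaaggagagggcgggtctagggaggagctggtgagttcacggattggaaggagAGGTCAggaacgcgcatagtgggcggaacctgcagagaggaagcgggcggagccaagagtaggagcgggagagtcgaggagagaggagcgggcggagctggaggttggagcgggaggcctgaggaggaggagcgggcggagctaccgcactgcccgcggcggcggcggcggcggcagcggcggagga
Dbp, chr1:105312006-105312255, plus strand: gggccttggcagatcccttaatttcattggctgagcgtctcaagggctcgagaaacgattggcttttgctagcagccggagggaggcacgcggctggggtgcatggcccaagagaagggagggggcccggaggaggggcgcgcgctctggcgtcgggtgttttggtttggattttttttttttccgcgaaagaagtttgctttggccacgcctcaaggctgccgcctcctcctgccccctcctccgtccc
Per2, chr9:99497070-99497243, minus strand: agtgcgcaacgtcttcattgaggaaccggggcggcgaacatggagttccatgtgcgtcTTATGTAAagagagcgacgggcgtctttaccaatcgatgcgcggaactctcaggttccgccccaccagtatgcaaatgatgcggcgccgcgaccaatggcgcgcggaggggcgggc
Per2, chr9:99497038-99497067, minus strand: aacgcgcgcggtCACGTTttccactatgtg

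Bhlhe41 held an E-box 48 bases before its start and Bhlhe40 one 220 bases before. Nr1d2 held the ROR element core 187 bases before its start and no E-box in this window. Per2 carried both an E-prime box at 62 bases and a D-box at 192 bases before its start. Nr1d1 had 2 entries, one with an E-prime box 174 bases and one with an E-box 191 bases before the start. The Nr1d1 window with the E-box lies wholly inside the annotated gene. No match was found for Dbp, Per1, Per3 or Clock in these windows. Those of Per1 and Per3 lie wholly inside the annotated gene, as does the later of the Clock windows. The search did not cover Cry1. A match is a description of the letters, not of binding.

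Array medians lay between 4.201 and 4.281 on the log2 scale in all 23 arrays. The CA1 pyramidal markers Wfs1 (mean 11.22 in young and 11.27 in aged arrays) and Fibcd1 (10.97 and 10.93) were among the 5 of 6 CA1 markers on the array that passed the filter. One of these 5, the decorin gene Dcn, was lower with age, at a mean of 8.20 in young and 7.49 in aged arrays (-0.71 ± 0.15, limma adjusted p = 0.00857). Young replicate 9 lies among the aged unimpaired columns of the deposited table and was kept as young, as labelled. Young replicate 1 stood apart in the clock genes: it had the highest Dbp and Nr1d2 and the lowest Bhlhe41 and Cry1 of the young arrays. The calls of Nr1d2 and Dbp, and the correlations of Dbp with Nr1d2 and with Cry1, are given with and without it. For other pairs no value without this array alone is given, only ranges over single left-out arrays where stated. The RNA is from whole tissue, so fewer cells of a type and less RNA per cell cannot be told apart. Each array is labelled as a separate biological replicate.

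Of the 10 genes, 9 passed the filter for low signal, which asks for more than 4 on the log2 scale in 6 or more arrays, through 12 of their 17 probe sets. Nr1d1, the gene of REV-ERB alpha, did not: its 1 probe set was over 4 in 0 of 23 arrays and lay between 1.68 and 2.35, so no difference is given for it. The other 4 probe sets below the filter were spare ones of Per2, Per3 and Clock, over 4 in at most 1 array. Each gene is described by its brightest probe set. The levels of different genes were not compared, because probe sets differ in brightness for reasons of sequence.

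The spread between arrays of one group differed widely between the clock genes. Bhlhe40 had a within-group standard deviation of 1.07 on the log2 scale, at the 99.9th percentile of the 9076 genes tested, and Per1 one of 0.437, at the 98.1st percentile. Dbp followed with 0.235 at the 85.8th percentile. The steadiest were Clock, at the 34.3rd percentile, and Bhlhe41, at the 31.1st percentile, with 0.111.

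**Figure D1:**
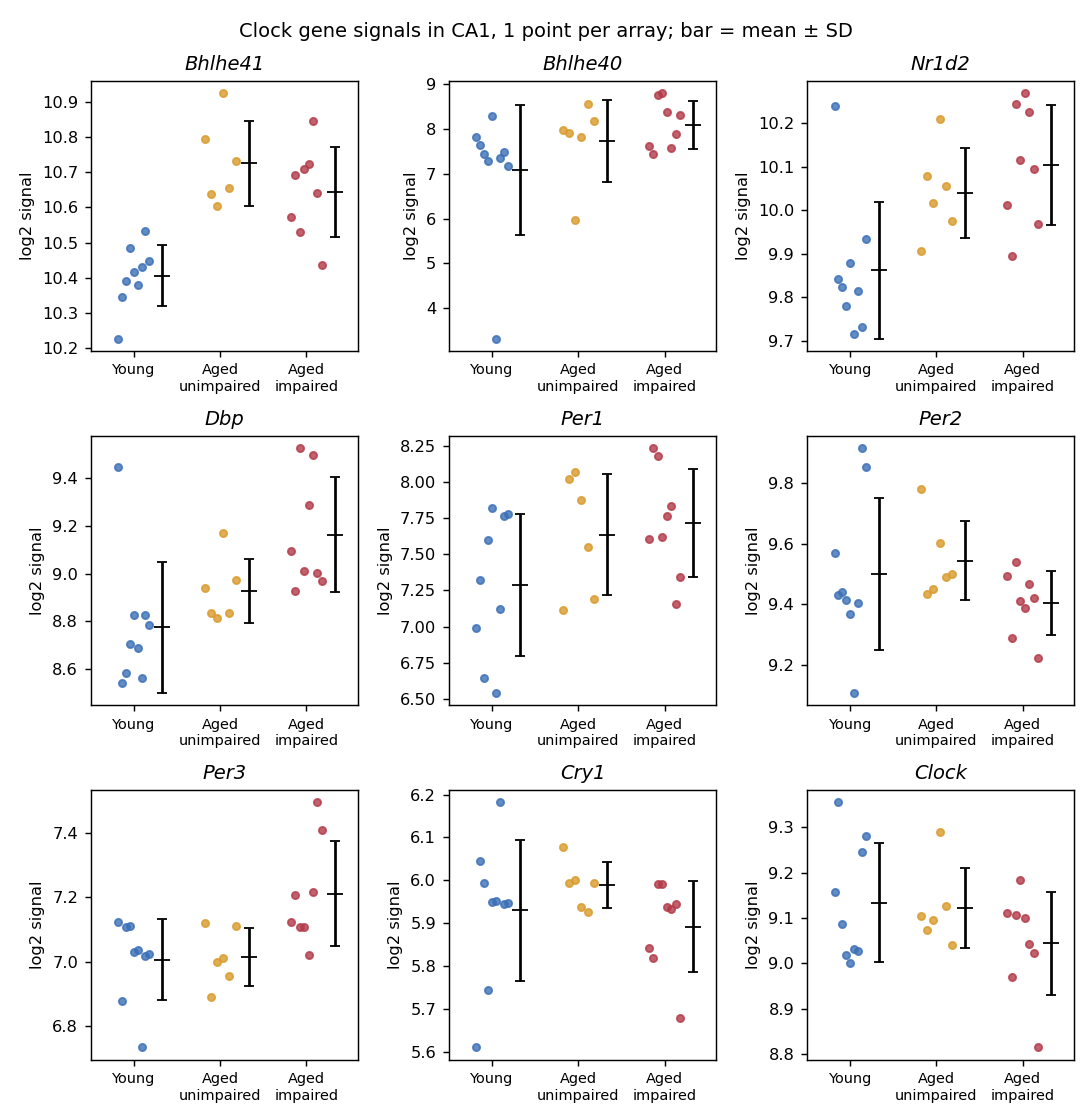
Log2 signals of the 9 measured clock genes (y axis, 1 panel per gene, each with its own range) in young, aged unimpaired and aged impaired rats (x axis); each point is an array and the bar beside it is the group mean ± SD. All 6 aged unimpaired arrays lie above every young array for Bhlhe41, while Bhlhe40 has 1 young array at 3.32 and Dbp has 1 young array at 9.45, far from the rest of their group.

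Where groups differed, clock genes were higher in aged than in young CA1. Against young rats, aged rats had higher Bhlhe41 and Nr1d2, impaired rats had higher Bhlhe41, Nr1d2 and Dbp, and unimpaired rats had higher Bhlhe41. No clock gene was called lower in any comparison. Calls are at an adjusted p under 0.05 from limma with Benjamini-Hochberg adjustment over all 9076 genes. They were 2 of 9 clock genes for aged against young (3.71% of all genes were called, 3.09% higher and 0.628% lower), 3 of 9 for impaired against young (3.8%, with 3.09% higher and 0.716% lower) and 1 of 9 for unimpaired against young (0.76%, with 0.617% higher and 0.143% lower). All 3 comparisons share the same 9 young arrays. The median log2 difference over the 9 clock genes was 0.21 for aged against young beside 0.01 over all genes, 0.24 beside 0.01 for impaired against young and 0.15 beside 0.02 for unimpaired against young.

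Bhlhe41 encodes DEC2, a repressor that binds E-boxes and competes with the CLOCK and BMAL1 pair. Its log2 signal ran from 10.23 through a median of 10.42 to 10.53 in young rats, from 10.60 through 10.69 to 10.92 in unimpaired rats, and from 10.44 through 10.67 to 10.85 in impaired rats. All 6 unimpaired arrays lay above every young array, and so did 6 of the 8 impaired arrays; impaired replicates 3 and 8 were within the young range. Of all genes, 0.661% had every unimpaired array above every young one. Bhlhe41 was higher by 0.27 ± 0.05 (log2 difference ± SE) in aged than in young rats, or 1.21-fold (limma, Benjamini-Hochberg adjusted p = 0.00152). The difference from young was 0.32 ± 0.06 in unimpaired rats (limma adjusted p = 0.00804) and 0.24 ± 0.05 in impaired rats (limma adjusted p = 0.0145). This was the 1 clock gene whose calls against young held in all 23 fits that left out 1 array, with adjusted p values of 0.000511 to 0.00453 for aged against young.

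Bhlhe40 encodes DEC1, the close relative of DEC2, which is also induced by neuronal activity and hypoxia. Its values were 3.32 to 8.29 in young rats with a median of 7.43, 5.96 to 8.57 in unimpaired rats with a median of 7.95, and 7.44 to 8.80 in impaired rats with a median of 8.10. Young replicate 6 at 3.32 and unimpaired replicate 3 at 5.96 were far below the other arrays, and the groups overlapped. The mean was higher by 0.85 ± 0.43 in aged rats, with a limma adjusted p of 0.350. Without young replicate 6 the difference was 0.38 and the limma adjusted p was 0.530, so the size of the difference rested largely on 1 array.

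Nr1d2 encodes REV-ERB beta, the repressor that closes the second loop of the clock. It measured 9.71 to 10.24 in young rats with a median of 9.82, 9.91 to 10.21 in unimpaired rats with a median of 10.04, and 9.89 to 10.27 in impaired rats with a median of 10.10. The highest young array, replicate 1 at 10.24, stood above 12 of the 14 aged arrays, and the next young array was at 9.93. Nr1d2 was higher by 0.21 ± 0.06 in aged rats (limma, Benjamini-Hochberg adjusted p = 0.0396) and by 0.24 ± 0.07 in impaired rats (limma adjusted p = 0.0418). In unimpaired rats the difference was 0.18 ± 0.07 and was not called (limma adjusted p = 0.365). The call for aged against young was lost in 15 of 23 fits that left out 1 array, with adjusted p up to 0.0842, and that for impaired against young in 14, up to 0.0960; without young replicate 1 they were 0.00326 and 0.00356.

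A second bright Nr1d2 probe set followed the first closely over the arrays (r = 0.857) but differed less between groups. Its log2 difference for aged against young was 0.11 ± 0.06, against 0.21 ± 0.06 for the first, when all 12193 probe sets were fitted, and neither was called there (limma adjusted p = 0.458 and 0.0514). The third, dim probe set had a difference of 0.26 ± 0.14. All 3 were positive.

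Dbp encodes an activator that binds D-boxes, and its transcript is among the most strongly rhythmic outputs of the clock. It measured 8.54 to 9.45 in young rats with a median of 8.71, 8.81 to 9.17 in unimpaired rats with a median of 8.89, and 8.93 to 9.53 in impaired rats with a median of 9.05. All 8 impaired arrays lay above 8 of the 9 young arrays, the highest of which was at 8.83; the ninth, replicate 1, was at 9.45. Dbp was higher by 0.39 ± 0.11 in impaired than in young rats, or 1.31-fold (limma, Benjamini-Hochberg adjusted p = 0.0434). For aged against young it was 0.29 ± 0.10 and missed the threshold (limma adjusted p = 0.102), and for unimpaired against young it was 0.15 ± 0.12 (limma adjusted p = 0.757). Without young replicate 1 the aged difference was 0.37 ± 0.08 and was called (limma adjusted p = 0.00580), and the impaired difference was 0.47 ± 0.09 (limma adjusted p = 0.00209). Leaving out single arrays cost the impaired call in 16 of 23 fits, with adjusted p up to 0.102.

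The Period genes, whose products form the inhibitory complex with the cryptochromes, did not pass the test in any comparison. Per1 measured 6.54 to 7.82 in young rats with a median of 7.32, 7.11 to 8.07 in unimpaired rats with a median of 7.71, and 7.16 to 8.24 in impaired rats with a median of 7.69. Its 3 highest arrays in each aged group, 6 of 14 in all, were above every young array, and the rest lay within the young range. The difference for aged against young was 0.40 ± 0.17 (limma adjusted p = 0.264).

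Per2 measured 9.11 to 9.92 in young rats with a median of 9.43, 9.44 to 9.78 in unimpaired rats with a median of 9.50, and 9.22 to 9.54 in impaired rats with a median of 9.42. Every aged array lay inside the young range, and the difference was -0.04 ± 0.07 (limma adjusted p = 0.885). Per3, the Period gene that is dispensable for the core loop, measured 6.73 to 7.12 in young rats with a median of 7.03, 6.89 to 7.12 in unimpaired rats with a median of 7.005, and 7.02 to 7.497 in impaired rats with a median of 7.17. All unimpaired arrays lay within the young range, while 4 of the 8 impaired arrays were above every young array. Its difference from young was 0.21 ± 0.06 in impaired rats (limma adjusted p = 0.0784) and 0.01 ± 0.07 in unimpaired rats (limma adjusted p = 0.992).

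Cry1 and Clock stand for the genes of the opposite or delayed phase. Cry1, the strongest repressor of the CLOCK and BMAL1 pair, measured 5.61 to 6.18 in young rats with a median of 5.95, 5.93 to 6.08 in unimpaired rats with a median of 5.99, and 5.68 to 5.99 in impaired rats with a median of 5.94. Clock, the activator subunit, measured 9.00 to 9.36 in young rats with a median of 9.09, 9.04 to 9.29 in unimpaired rats with a median of 9.10, and 8.81 to 9.18 in impaired rats with a median of 9.07. The groups overlapped for both genes, with 2 impaired arrays of Clock below every young array. The differences for aged against young were 0.00 ± 0.05 for Cry1 and -0.06 ± 0.05 for Clock, neither called (limma adjusted p = 0.984 and 0.668). A second Clock probe set gave 0.00 ± 0.06.

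Between the aged groups, no clock gene and none of the 9076 genes was called by limma; before adjustment, 629 genes, or 6.93%, had a p under 0.05, and 1 of these was a clock gene. That gene was Per3, higher in impaired than in unimpaired rats by 0.20 ± 0.07 (limma adjusted p = 0.617). Dbp was 0.24 ± 0.12 higher (limma adjusted p = 0.726). Bhlhe41 was lower by the fit at -0.08 ± 0.06 (limma adjusted p = 0.836). So the calls of Dbp and Nr1d2 in impaired but not in unimpaired rats were not accompanied by a called difference between those groups.

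**Figure D2:**
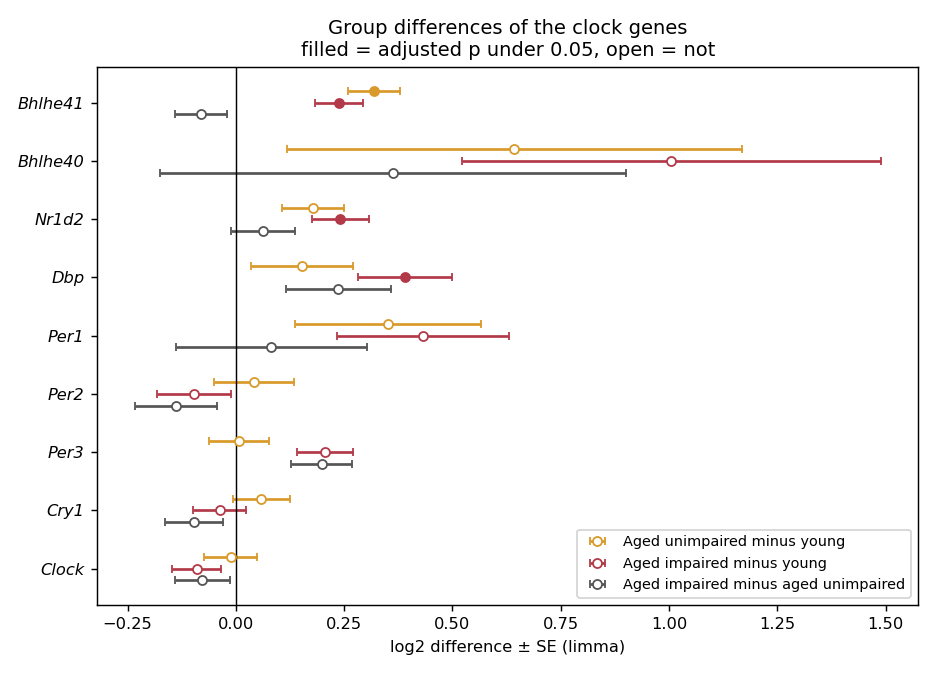
Log2 differences ± SE from limma (x axis) for the 9 measured clock genes (y axis) in 3 comparisons, with filled points where the adjusted p was under 0.05. Bhlhe41 is filled in both comparisons with young, at 0.32 and 0.24, Nr1d2 and Dbp in impaired against young, at 0.24 and 0.39, and no point of impaired against unimpaired is filled.

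The covariation of the clock arms was then examined over the arrays. The 9 measured clock genes form 36 pairs, and Bmal1 (also Arntl) and Npas2 were read against each of them as 18 further pairs; the third gene planned beside them, Nfil3, was below the filter. Each pair was tested by a 2-sided permutation test of Pearson's r with 100000 resamples and Benjamini-Hochberg adjustment within its family, and again on deviations from the group means, which removes differences between groups.

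Nr1d2 and Dbp were positively correlated over the arrays. Over the 23 arrays r was 0.852 and rho 0.851 (permutation p = 1e-05 for both, the smallest that the resamples can give, adjusted p = 0.00036 for both), and on deviations from the group means r was 0.796 (permutation p = 0.00036, adjusted p = 0.0130). Without the 2 arrays of most extreme Nr1d2, impaired replicates 3 and 5, r was 0.816, and over the fits without 1 array it was 0.834 to 0.873. Within the groups r was 0.836 in young, 0.497 in unimpaired and 0.836 in impaired rats. The young value includes young replicate 1, the highest young array in both genes, and was not computed without it. The unimpaired value includes unimpaired replicate 4, the highest unimpaired array in both genes, at 10.21 and 9.17, and was not computed without it. Neither value therefore shows that the other arrays of its group covary. Over all arrays without young replicate 1 r was 0.834, and the value on deviations was not computed without it. Ranked against all 9075 other genes on the deviations, Nr1d2 was the first gene for Dbp, and Dbp was second for Nr1d2 after Rere. With the other bright Nr1d2 probe set r was 0.750, and with the dim one 0.447, an alternative chosen after the data were seen.

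Npas2, the relative of Clock that REV-ERB proteins repress, was positively correlated with both over the arrays. For Nr1d2 and Npas2 r was 0.691 and rho 0.720 (permutation p = 0.00032 and 0.00019, adjusted p = 0.00576 and 0.00342), and without the 2 arrays farthest from the median of Nr1d2 r was 0.656. Dbp and Npas2 gave r of 0.606 and rho of 0.666 (permutation p = 0.00215 and 0.00073, adjusted p = 0.0194 and 0.00657), and 0.597 without the 2 arrays farthest from the median of Dbp. Leaving out single arrays gave r of 0.657 to 0.791 for Nr1d2 and Npas2 and of 0.577 to 0.669 for Dbp and Npas2. On deviations from the group means r was 0.629 and 0.583, with adjusted permutation p of 0.0522 for each. Young replicate 1 was the highest young array in Npas2 too, at 10.40, and the values on deviations were not computed without it.

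Negative relations between the arms did not pass the adjustment. Bmal1, the partner of CLOCK and a target of REV-ERB repression, gave r of -0.461 and rho of -0.383 with Nr1d2 (permutation p = 0.0235 and 0.0705, adjusted p = 0.106 and 0.159) and r of -0.373 and rho of -0.460 with Dbp (permutation p = 0.0769 and 0.0282, adjusted p = 0.198 and 0.127). On deviations r was -0.302 and -0.199. Per3 and Cry1 gave the most negative r of the 36 pairs, -0.531, with rho of -0.520 (permutation p = 0.0108 and 0.0126, adjusted p = 0.0976 and 0.0703), and -0.558 without the 2 arrays of most extreme Per3, young replicate 7 and impaired replicate 7. Over the fits without 1 array r of Per3 and Cry1 was -0.659 to -0.410. Within the groups it was -0.793 in young, 0.533 in unimpaired and -0.424 in impaired rats. Among young arrays, replicate 7 had the lowest Per3 and highest Cry1, and replicate 1 the highest Per3 and lowest Cry1. The young value was not computed without them, so it does not show that the other young arrays covary. Per3 and Clock followed with r of -0.479 and rho of -0.422 (permutation p = 0.0219 and 0.0448, adjusted p = 0.158 and 0.161). Without the same 2 arrays r of Per3 and Clock was -0.679, and on deviations it was -0.356 with them and -0.638 without. Leaving out single arrays gave -0.619 (without young replicate 7) to -0.319 (without impaired replicate 8), and the second Clock probe set gave -0.232 with Per3. For Dbp and Cry1 r was -0.361 and rho -0.434 (permutation p = 0.0898 and 0.0398, adjusted p = 0.249 and 0.159). Within young rats r of Dbp and Cry1 was -0.809, in impaired rats it was 0.519, and over all arrays without young replicate 1 it was -0.191. Without impaired replicates 3 and 6, the arrays of most extreme Dbp, it was -0.529, and -0.567 on deviations, so the size of this relation moved either way with single arrays.

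**Figure D3:**
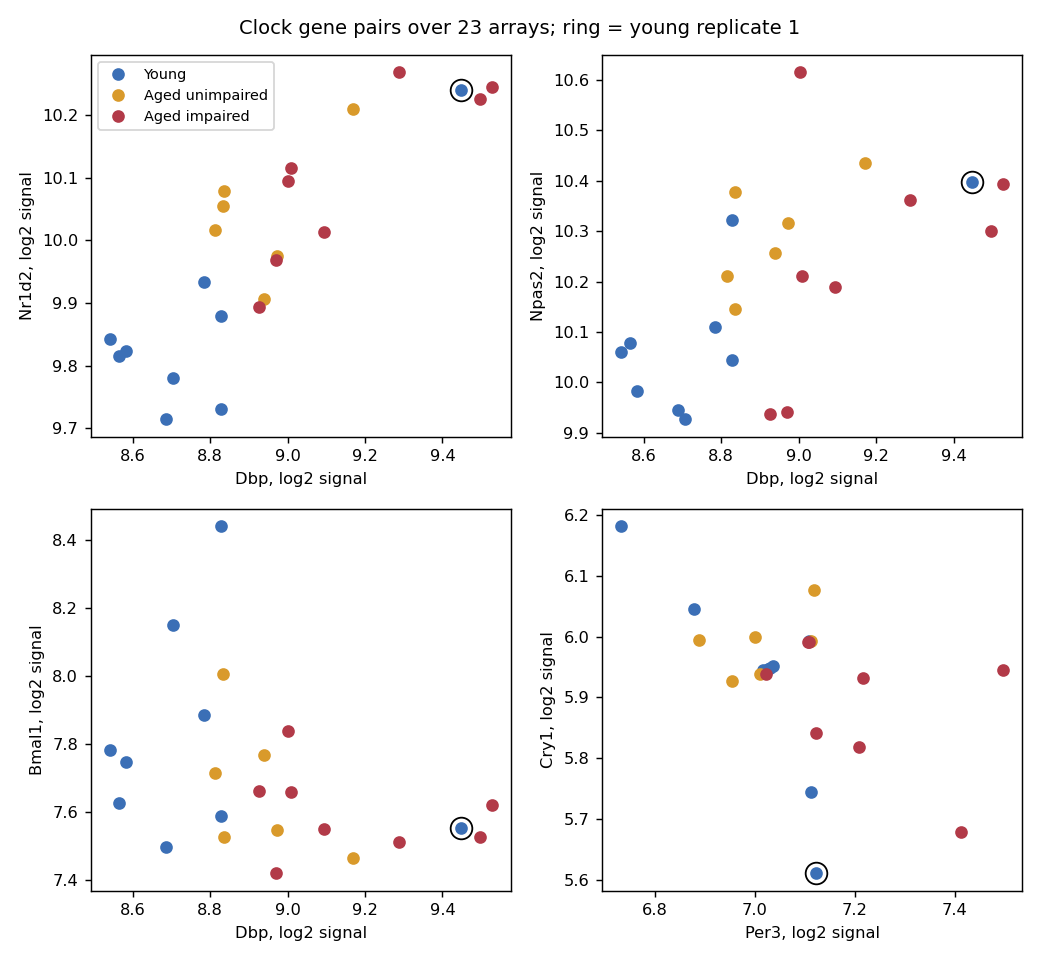
Log2 signals of 4 pairs of clock genes over the 23 arrays (both axes log2 signal, 1 point per array, coloured by group, young replicate 1 ringed). Nr1d2 and Npas2 rise with Dbp (r = 0.852 and 0.606), while Bmal1 falls weakly with Dbp (r = -0.373) and Cry1 with Per3 (r = -0.531), and in the Dbp panels the ringed young array sits among the highest impaired arrays.

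Per2 and Clock, which belong to opposite arms, were positively related. Over all arrays r was 0.622 and rho 0.687 (permutation p = 0.00195 and 0.00043, adjusted p = 0.0351 and 0.00774), without young replicates 8 and 9 r was 0.495, and on deviations it was 0.585 (adjusted p = 0.131). The second Clock probe set gave 0.599 with Per2. Per2 with Bmal1 gave 0.540 with rho of 0.301 (permutation p = 0.00979 and 0.162, adjusted p = 0.0587 and 0.323), and without young replicates 8 and 9, which were highest in Per2, r was 0.188, so it rested on them. Of the 14 pairs of clock genes that cross the arms, 7 had r below 0, the median r was -0.000355, none was called negative and 1, Per2 with Clock, was called positive. Of the 22 pairs within an arm, 20 had r above 0, with a median of 0.294, and 1, Nr1d2 with Dbp, was called. On deviations from the group means the medians were close, 0.168 within an arm and 0.142 across the arms. There, 5 of the 22 pairs within an arm and 6 of the 14 across had r below 0. Medians of single clock genes against all genes ran from -0.146 (Per3) to 0.189 (Bhlhe41) on deviations. By rank correlation 2 more pairs within the arm passed the adjustment, Bhlhe40 with Nr1d2 and Bhlhe40 with Dbp. Their rho was 0.585 and 0.580 (permutation p = 0.00399 and 0.00403, adjusted p = 0.0363 for each), and their r was 0.493 and 0.376 (permutation p = 0.00717 and 0.0793, adjusted p = 0.0860 and 0.249). On deviations from the group means r was 0.338 and 0.192. Per2 with Npas2, across the arms, also passed by rank, with rho of 0.554 and r of 0.417 (permutation p = 0.00677 and 0.0467, adjusted p = 0.0406 and 0.140).

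The arms were also summed as the mean z-score per array of the 7 measured genes of the Per, Nr1d2, Dbp and Bhlhe group (arm A) and of Cry1, Clock, Bmal1 and Npas2 (arm B). Arm A ran from -1.70 to 0.15 in young rats, from -0.16 to 0.75 in unimpaired rats and from 0.01 to 0.90 in impaired rats. Arm B ran from -0.65 to 1.27, from -0.01 to 0.49 and from -1.74 to 0.56. Most aged arrays stood above most young ones in arm A, and in arm B the groups overlapped. The 2 arms were correlated at r = 0.194 over the arrays and at 0.431 on deviations from the group means. The first value was 0.0836 without young replicate 6 and turned to -0.039 with arrays centred on their median and to -0.0533 without Bmal1 and Npas2; without Cry1 it was 0.320. The value on deviations was 0.267 with centred arrays, 0.152 without Bmal1 and Npas2 and 0.608 without Cry1, so it stayed above 0 in each of these. These scores over the chosen genes are descriptions and carry no test.

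**Figure D4:**
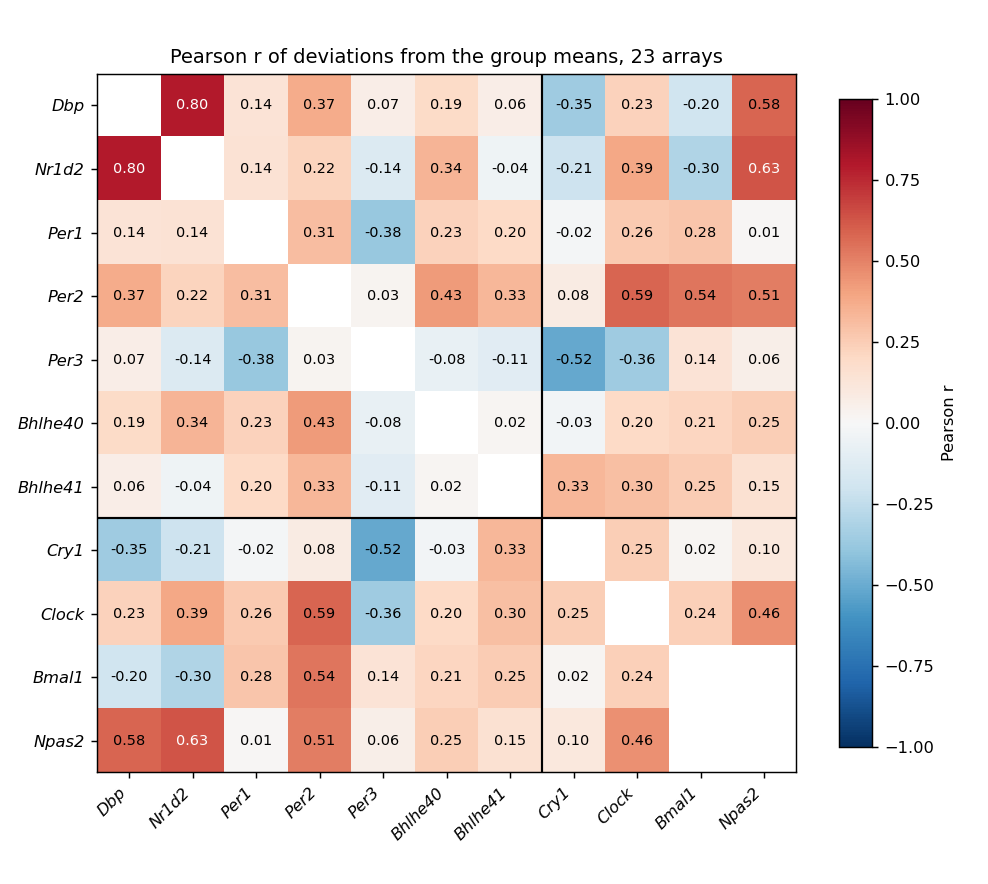
Pearson r of the deviations from the group means over 23 arrays for each pair of clock genes, with Bmal1 and Npas2 added; black lines divide the arm of Dbp, Nr1d2, the Per and the Bhlhe genes from that of Cry1, Clock, Bmal1 and Npas2, and the pair of Bmal1 with Npas2 was not computed. The strongest value is that of Dbp with Nr1d2, 0.80, and the most negative that of Per3 with Cry1, -0.52, while most values across the lines are positive.

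Per1 followed a different set of genes. Of all 9075 other genes its deviations were most like those of Arc, the activity-regulated cytoskeletal gene (r = 0.736 over 23 arrays), Paxbp1 (0.722) and Junb (0.700), and least like those of Cdk20 (-0.689), Gap43 (-0.639) and Riok1 (-0.614). Among 12 measured immediate early genes, which neurons switch on within minutes of activity, 11 had r above 0 with Per1, with a median of 0.491. Over all genes 61.55% had r above 0 and the median was 0.0665. Among 16 measured genes that respond to glucocorticoids 15 had r above 0, with a median of 0.381, led by the kinase gene Sgk1 (0.648) and the transcription factor gene Klf15 (0.600). Genes of one response are not independent of each other, so these values are descriptions.

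**Figure D5:**
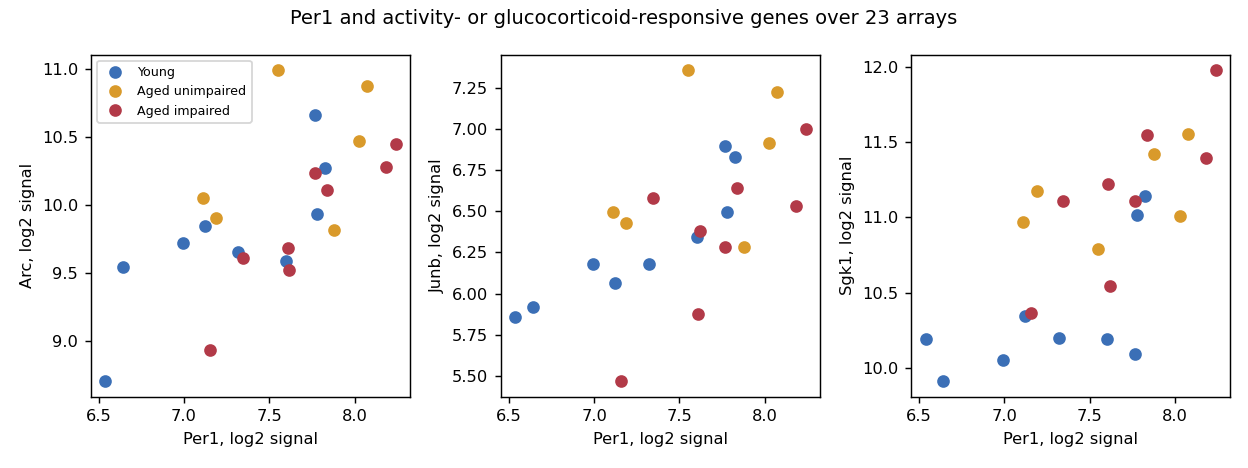
Log2 signal of Per1 (x axis) against Arc, Junb and Sgk1 (y axes) over the 23 arrays, coloured by group. On deviations from the group means r was 0.736 for Arc, 0.700 for Junb and 0.648 for Sgk1, and the points rise from left to right, most loosely in the unimpaired group.

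The remaining clock genes were read against both lists in the same way, on deviations from the group means. Per2 had r above 0 with 11 of 12 immediate early genes, the same count as Per1, and with 14 of 16 glucocorticoid genes. Its medians were 0.305 and 0.237, beside 0.166 over all genes, of which 73.3% had r above 0 with Per2. Bhlhe40 had r above 0 with 10 immediate early genes (median 0.183) and 5 glucocorticoid genes (median -0.0684), beside 55.1% and a median of 0.0270 over all genes. Bhlhe41 had r above 0 with 6 immediate early genes (median -0.0122) and all 16 glucocorticoid genes (median 0.258), beside 75.57% and 0.189 over all genes.

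For Dbp the counts were 6 of 12 (median 0.00333) and 10 of 16 (median 0.151), beside 62.17% and 0.0851 over all genes, and for Nr1d2 5 of 12 (median -0.0504) and 7 of 16 (median -0.0210), beside 64.8% and 0.1002. Per3 had r above 0 with 1 immediate early gene (median -0.157) and 4 glucocorticoid genes (median -0.143), beside 31.85% and -0.146 over all genes. Cry1 had 3 (median -0.0928) and 10 (median 0.0144), beside 65.44% and 0.0878, and Clock had 7 (median 0.0866) and 13 (median 0.170), beside 74.75% and 0.185. The median with the immediate early genes was thus highest for Per1 and next for Per2, and that with the glucocorticoid genes highest for Per1 and next for Bhlhe41. Differences between these medians were not tested.

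Of the 16 glucocorticoid genes 3 were called higher in aged than in young rats (3.09% of all genes were called higher). Among impaired rats 2 were, Klf15 and Sgk1 (beside 3.09%), and among unimpaired rats none (beside 0.617%). Against young, aged rats had higher Klf15 by 0.42 ± 0.07, Sgk1 by 0.81 ± 0.17 and Mt2A by 0.48 ± 0.13 (limma adjusted p = 0.00106, 0.00847 and 0.0405), and Pdk4 differed by 0.40 ± 0.12 without a call (limma adjusted p = 0.0702). Of the 12 immediate early genes none was called for aged against young. In impaired rats 1 was, Homer1, a synaptic scaffold gene, lower than in young rats at -0.27 ± 0.07 (limma adjusted p = 0.0381). Of all genes 0.716% were called lower in that comparison. The part of either response in the level of Per1 was not tested.

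The other genes of the clock were read from a list of 30, of which 24 were on the array and 22 passed the filter. For aged against young 1 of 22 was called and for impaired against young 2, all higher, and none for unimpaired against young or between the aged groups. Over all genes 3.71% and 3.8% were called in the first 2 comparisons, so 1 of 22 is near the share over all genes. Rbm3, a cold-inducible RNA-binding protein whose level follows the daily rhythm of body temperature, was higher by 0.36 ± 0.08 in aged rats and by 0.55 ± 0.10 in impaired rats (limma adjusted p = 0.0162 and 0.00154). Its values ran from 10.24 to 11.01 in young, from 10.57 to 10.94 in unimpaired and from 10.81 to 11.53 in impaired rats. Cirbp, its relative, was higher by 0.32 ± 0.08 in impaired rats (limma adjusted p = 0.0311) and by 0.21 ± 0.07 in aged rats without a call (limma adjusted p = 0.132).

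The core partners did not pass the test. Bmal1 differed by -0.18 ± 0.09 and Npas2 by 0.17 ± 0.07 between aged and young rats (limma adjusted p = 0.386 and 0.264). Cry2, the second cryptochrome, differed by 0.11 ± 0.05 and Usp2, a clock-controlled deubiquitinase, by 0.24 ± 0.10 (limma adjusted p = 0.233 for each). The PAR domain relatives of Dbp had differences of the other sign, -0.17 ± 0.08 for Tef and -0.14 ± 0.12 for Hlf (limma adjusted p = 0.317 and 0.637). The median over the 22 genes was 0.02, beside 0.21 over the 9 clock genes described above.

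Genes outside the clock that moved most like its members over the arrays are given for each as a description, over 23 arrays and on deviations from the group means. Bhlhe41 was most like Dancr (r = 0.830), Gle1 and Tp53rkb and least like Zswim9 (-0.689), S100a14 and Ecpas. Bhlhe40 was most like Ptdss1 (0.718), Dhx36 and Synj2 and least like Ccdc28b (-0.836), Spidr and Slc4a11. Nr1d2 was most like Rere (0.808), Dbp and Tjap1 and least like Ndufs4 (-0.814), Ndufb1 and Pcgf1. Dbp had Nr1d2, Rere (0.781) and Abcg1 at one end and Amn1 (-0.722), LOC100912202 and Dpy30 at the other. The transcriptional corepressor gene Rere thus stood among the first 3 for both Nr1d2 and Dbp. Per2 was most like Med23 (0.805), Mapk1ip1 and Gtf3c4 and least like Gins4 (-0.770), Dhx58 and LOC102549608. Per3 was most like Wfdc1 (0.759), Sorbs3 and Arid5b and least like Zfand5 (-0.854), Cops2 and Lclat1. Cry1 was most like Dgat1 (0.761), Rab23 and Prune2 and least like Fam177a1 (-0.671), Gpalpp1 and Heph. Clock was most like Ift80 (0.790), Mex3d and Rfx7 and least like Ppp1r36 (-0.788), Med19 and Trpv5. No 2 of the other clock genes shared a gene among their first 3.

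Markers of other cells were read beside these results. Of 10 measured microglial markers 6 were called higher in aged rats (Aif1, C1qa, C1qc, Ctss, Fcer1g and Tyrobp), beside 3.09% of all genes, and Csf1r was called in impaired rats. The summed level of a list is the log2 of its summed unlogged signals, so its brightest markers weigh most. For the microglial markers it was 12.83 to 13.17 in young, 13.18 to 13.50 in unimpaired and 13.23 to 13.56 in impaired rats. Of 9 astrocyte markers 3 were higher (Agt, Gfap and S100b), with summed levels of 15.75 to 15.94, 15.90 to 16.05 and 15.87 to 16.15. On deviations from the group means the correlation of Bhlhe41 was 0.264 with the microglial level and 0.216 with the astrocyte level, that of Nr1d2 was 0.166 and 0.446, and that of Dbp was 0.0759 and 0.343. Over all arrays, age included, the values were higher: 0.712 and 0.596 for Bhlhe41, 0.612 and 0.695 for Nr1d2, and 0.508 and 0.601 for Dbp. The means of all 3 genes and of both marker levels were higher in aged rats. Values above 0 over all arrays are therefore expected from the group differences alone. On deviations the microglial values lay near the medians of these genes against all genes, 0.189 for Bhlhe41, 0.1002 for Nr1d2 and 0.0851 for Dbp. The astrocyte values lay above these medians, by least for Bhlhe41. None of these correlations was tested. On deviations from the group means, Per2 was most closely tied to the summed CA1 pyramidal level, at 0.717, and Clock stood at 0.545 with it. That level ran from 13.32 to 13.77 in young, from 13.53 to 13.75 in unimpaired and from 13.33 to 13.56 in impaired rats. The oligodendrocyte level gave 0.514 with Nr1d2, 0.524 with Per2 and 0.501 with Clock, also on deviations. Of the other lists, called genes against young were the CA3 and CA2 marker Spock1 (0.24 ± 0.06 in aged rats, limma adjusted p = 0.0341), the oligodendrocyte gene Opalin (0.35 ± 0.09 in impaired rats, limma adjusted p = 0.0293), the endothelial genes Slco1c1 and Sox17 (-0.41 ± 0.08 and -0.40 ± 0.09 in aged rats, limma adjusted p = 0.00503 and 0.0128) and the meningeal gene Igf2 (-0.84 ± 0.16 in aged rats, limma adjusted p = 0.00249). The part of these markers in the differences was not tested.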

How the data were processed

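RNA of 23 CA1 samples was measured with 1 Affymetrix Rat Genome 230 2.0 array each. The deposited log2 signals come from the authors' GCRMA processing, as the submitters' processing notes name it; its version is not given in the sources used here. They were used as deposited. A further aged unimpaired column was blank and not used. Symbols came from the platform annotation: 20832 probe sets had 1 symbol, 436 several and 9831 none. Each gene was represented by the brightest of its probe sets above 4 (log2) in 6 or more arrays, leaving 9076 genes. Group means were fitted with limma 3.58.1 in R 4.3.3, aged rats weighted by their arrays, with Benjamini-Hochberg adjustment over all genes. Median standard errors of a log2 difference were 0.0582 (aged against young), 0.0662 (impaired against young), 0.0718 (unimpaired against young) and 0.0736 (impaired against unimpaired). Arrays give no count depth; their number limits the precision. Pair correlations used 100000 permutations in Python 3.11.15 with numpy 2.4.6, within groups for deviations. Both steps were tested on simulated data. All members were named, with up to 4 genes of smallest p and every called gene of each list, and the 3 most and least like genes of each member. Members and lists were chosen with earlier results of these data known. Alternatives covered filter, probe sets, scaling, weights, moderation, RNA quality, replicate block, threshold and leaving out arrays. No batch is given in the labels. Same-numbered arrays of different groups had a median r of -0.0519 over 20 pairs, beside 0.0161 over 154 other pairs, and no pairing was used.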

Additional observations from a re-analysis of the deposited data

Results flagged for a closer look

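In 5 of 27 checks of a clock gene in a group, 1 array stood apart from the rest by a gap that is large for the range of the group; chance gives about 1 in 20 such checks. Bhlhe40 was 3.323 in young replicate 6, with the next array at 7.169, and 5.965 in unimpaired replicate 3, with the next at 7.811. Young replicate 1 was highest both in Nr1d2, at 10.24 with the next array at 9.934, and in Dbp, at 9.447 with the next at 8.828. Clock was 9.29 in unimpaired replicate 4, with the next array at 9.127.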

How the results depend on the processing

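Bhlhe41 kept its direction and its call against young in each of the 3 comparisons under every alternative run. For aged against young 1 clock gene, Bhlhe41, was called in place of 2 without the filter, with the mean of the probe sets, with all probe sets as rows, with centred arrays, with unmoderated errors and with the replicate block as a random or a fixed term; adjusted p of Nr1d2 was then 0.0514 to 0.157. For impaired against young 1 was called in place of 3 without the filter, with all probe sets as rows, with unmoderated errors, with either replicate block and with only the groups compared. Leaving out single arrays gave 1 to 3 called clock genes in both comparisons. The causes were not tested.

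Over all genes, the fixed replicate block gave 159 calls for aged, 165 for impaired and 31 for unimpaired rats against young and 1 between the aged groups, where the fit of only those groups also gave 1. At an adjusted p under 0.1 there were 524, 531 and 135, and with array weights 149 for unimpaired rats. Leave-outs gave 224 to 407 (lowest without young replicate 2), 228 to 439 (without impaired replicate 6) and 35 to 86 (without unimpaired replicate 4). Of 20 same-numbered pairs 1 had an r over 0.1. A low r cannot tell whether the numbers pair arrays, so the fits with a replicate block are given as alternatives.

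For Nr1d2 and Dbp r was 0.497 within unimpaired rats, 0.740 with the mean of the probe sets, and 0.447 and 0.750 with the other Nr1d2 probe sets. The arm means gave r of -0.0533 without Bmal1 and Npas2 and -0.039 with centred arrays, and on deviations 0.152 without Bmal1 and Npas2. No called value changed sign.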
